A study of Mus musculus with 6 samples.

Results

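The genes described here are 10 transcriptional outputs of ERK signalling: the feedback inhibitors Spry2, Spry4, Spred1, Dusp4 and Dusp6, the ETS factors Etv4 and Etv5, and the immediate-early genes Egr1, Fos and Ier3. They were selected by name, and 10 of 10 had a row among the 12626 genes of the processed files. RNA was sequenced from WT J1 mouse ES cells on 3 days of a change of culture medium, with 2 biological replicates per day. D0 cells were in feeder-free serum medium with 15% FBS. D6 and D13 cells had spent that number of days in 2i+vitC, a serum-free medium holding 1 µM of the MEK inhibitor PD0325901, 3 µM of the Gsk3 inhibitor CT-99021 and 100 µg/mL vitamin C. All 6 cultures received LIF at 1000 U/mL. The basal medium and its supplements also differed from those of the serum medium. The loss of serum, the other basal medium and supplements, both inhibitors and vitamin C came together. Their effects cannot be told apart in these samples.

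ERK is the last kinase of the RAS-RAF-MEK-ERK cascade. In ES cells it is driven mainly by FGF4, which the cells make themselves, and by growth factors of serum, and it favours the exit from naive pluripotency. PD0325901 binds MEK and prevents the phosphorylation of ERK. Active ERK phosphorylates ETS and other transcription factors. These turn on immediate-early genes within minutes, and a second set of genes whose products dampen the cascade: Sprouty and Spred proteins act upstream at the level of RAS and RAF, and DUSP phosphatases remove the activating phosphates from ERK itself. Transcripts of such genes have short lives, and are therefore widely read as a measure of pathway output.

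Values are log2 CPM as deposited, reads of a gene on a log2 scale relative to the size of the library, and reads on genes ranged from 73230745 to 83688345 per library. Differences between days were tested with limma over all genes and transposon families, and p-values were adjusted by Benjamini-Hochberg. A gene counts as called, or as having risen or fallen, where its difference exceeded 4-fold and its adjusted p was under 0.05. Of 10 ES cell markers, 10 had a row, with a summed level of 3192 to 4840 CPM over the 6 libraries. Pou5f1, which encodes the core pluripotency factor OCT4, had a mean of 9.79, 9.66 and 9.82 log2 CPM at D0, D6 and D13. Other ES cell markers moved: Lin28a was called down at D6 and D13 with log2 fold changes from D0 of -3.89 and -4.91, Utf1 likewise with -2.10 and -2.96, and Dppa4 at D13 with -2.27, while Nanog was called up at D6 by 4.01-fold. The mean summed level of the 10 was 4679 CPM at D0, 4440.0 at D6 and 3574 at D13. Markers of other cell types summed to far less at D0: 13.5 to 33.1 CPM for the 4 fibroblast markers with a row, 17.8 to 20.4 CPM for 3 primitive endoderm markers, 127 to 130 CPM for 3 trophoblast markers and 4.20 to 4.49 CPM for 2 germ layer markers. At D6 these sums were 7.84 to 8.89, 3.48 to 5.42, 104 to 110 and 5.43 to 5.44 CPM, so that the fibroblast, primitive endoderm and trophoblast sums were lower beside the ERK genes. The trophoblast sum was 81.2 to 85.4 CPM at D13. Its keratin gene Krt8 was called down with log2 fold changes from D0 of -2.69 at D6 and -2.93 at D13. Tfap2c and Eomes, the other trophoblast markers with a row, were not called. Tfap2c had higher means than at D0, by 1.02 at D6 and 0.64 at D13 on the log2 scale. Eomes had log2 fold changes from D0 of -0.17 and -0.44. Most of the primitive endoderm sum at D0 was Dab2, which encodes an endocytic adaptor and was called down at D6 with a log2 fold change of -4.32. The other markers of that list were not called and had higher means at D6, Sox17 by 0.16 and Pdgfra by 0.52 on the log2 scale. The markers with no row under their names were Col3a1, Lum, Dcn, Postn, Sox7, Foxa2, Gata4, Gata6, Cdx2, Elf5, Hand1, T, Mixl1, Pax6 and Foxc1. The part of rare other cells in the results below was not tested, and in bulk RNA fewer cells of a type cannot be told apart from less RNA per cell.

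From D0 to D6, 5 of the 10 genes fell past the threshold and 0 rose. Of all genes, 3.90% were called down and 5.91% up in that comparison. Without the 4-fold minimum, 9 of 10 genes were down at an adjusted p under 0.05, against 10.4% of all genes. Of these, Ier3 was closest to the limit, with a limma adjusted p of 0.0294. In 10 of 10 genes both D6 replicates were below both D0 replicates, an arrangement found in 35.2% of all genes. The median log2 fold change was -3.08 over the 10 genes and -0.01 over all genes. Between D6 and D13, 2 of the 10 genes rose past the threshold and 0 fell, with 0.388% of all genes called up and 0.697% down. From D0 to D13, 8 of 10 were called down and 0 up, against 6.01% and 7.45% of all genes. At an adjusted p under 0.05 alone, 9 of 10 were down, against 21.8% of all genes. Etv5 was closest to the limit there, with a limma adjusted p of 0.0299. For these 13 days the median log2 fold change was -2.51 over the 10 genes and -0.01 over all genes. The comparisons from D0 share the same 2 serum libraries.

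The genes differed in depth and course. Spry4, Egr1 and Dusp6 fell to between 0.663% and 1.94% of their D0 level at D6 and were still at or under 3.89% at D13. Dusp4, Fos, Dusp6 and Etv4 had their lowest mean at D6, and of these Dusp4 and Fos were called up again by D13. Spry2 and Spred1 had their lowest mean at D13, as did Spry4, Etv5, Egr1 and Ier3. Etv5 moved least from D0 to D6. The 10 genes are taken below by role.

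**Figure D1:**
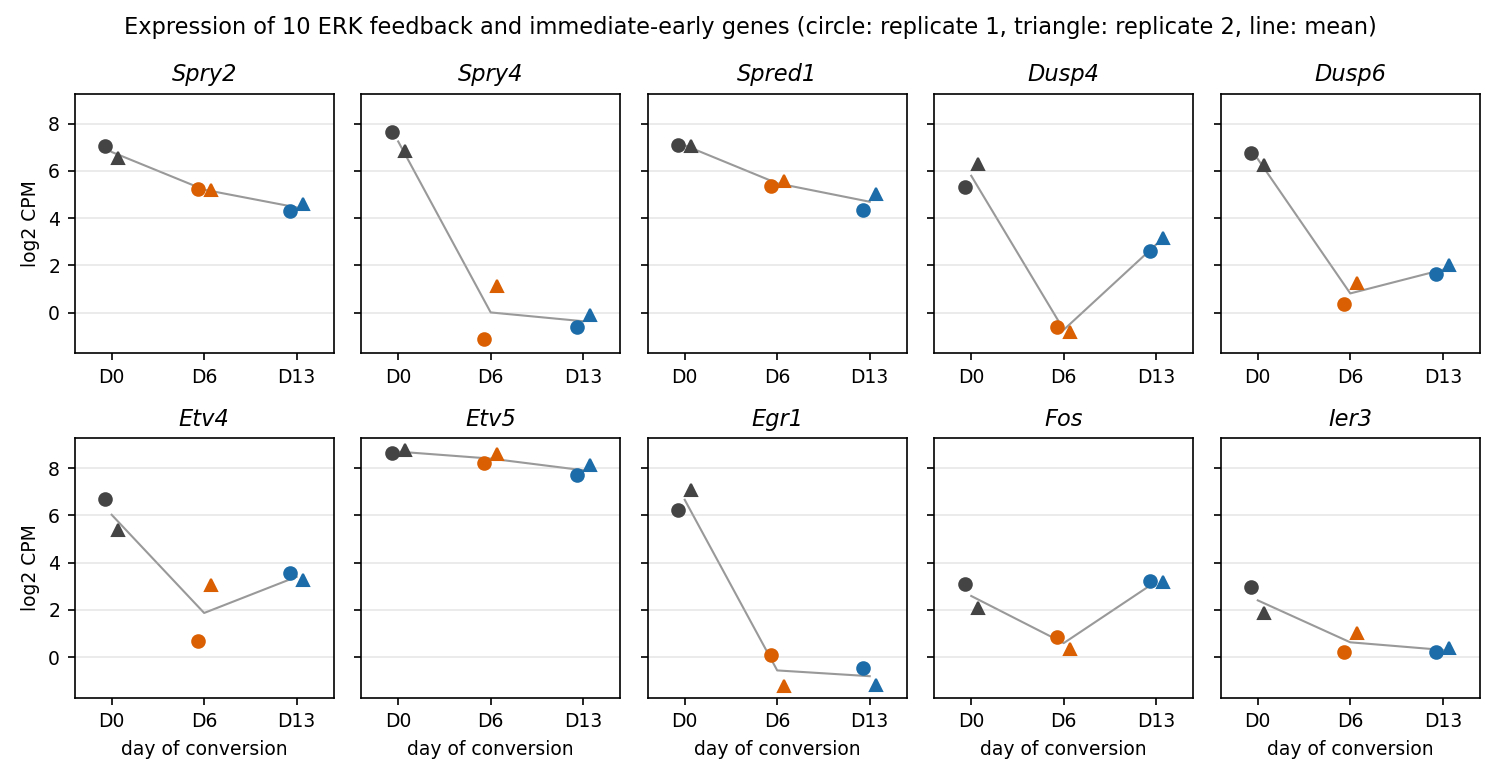
Log2 CPM of each of the 10 genes in each library on D0, D6 and D13, with circles for replicate 1, triangles for replicate 2 and lines through the means of 2 replicates. Spry4 and Egr1 went from above 6 at D0 to below 1.2 on both later days, Dusp4 and Fos dipped at D6, and Etv5 stayed above 7.6 throughout.

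The start regions of 3 genes are shown because these genes took 3 different courses: Dusp6 stayed low, Fos came back and Etv5 moved little. Each run is the 250 bases directly before a RefSeq transcription start on GRCm38.p6, read 5′ to 3′ on the gene's strand, with letters that match a searched motif in capitals. For Dusp6 it lies at chr10:99262981-99263230 on the plus strand, for Fos at chr12:85473640-85473889 on the plus strand, and for Etv5, at the first of 2 annotated starts, at chr16:22439571-22439820 on the minus strand.
Dusp6: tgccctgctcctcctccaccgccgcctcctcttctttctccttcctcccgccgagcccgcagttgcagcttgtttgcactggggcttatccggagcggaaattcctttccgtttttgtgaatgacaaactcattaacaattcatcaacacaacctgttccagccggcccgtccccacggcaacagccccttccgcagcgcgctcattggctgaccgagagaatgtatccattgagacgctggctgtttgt
Fos: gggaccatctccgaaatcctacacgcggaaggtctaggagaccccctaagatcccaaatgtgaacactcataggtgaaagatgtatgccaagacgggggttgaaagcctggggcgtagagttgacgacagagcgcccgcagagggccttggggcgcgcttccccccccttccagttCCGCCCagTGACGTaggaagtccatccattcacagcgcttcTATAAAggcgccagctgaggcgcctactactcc
Etv5: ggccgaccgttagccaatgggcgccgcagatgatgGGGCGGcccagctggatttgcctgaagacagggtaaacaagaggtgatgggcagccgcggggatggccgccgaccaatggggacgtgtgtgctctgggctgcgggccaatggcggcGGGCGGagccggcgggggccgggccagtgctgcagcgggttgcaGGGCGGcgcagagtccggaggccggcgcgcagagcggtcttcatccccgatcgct
The RefSeq table held such regions for 6 of the 10 genes, 7 regions in all. It had no entry for Spry4, Dusp4, Etv4 or Egr1. Both strands were searched for 7 motifs. They were the CArG box bound by SRF, the ETS-type sequence CCGGAA, the AP-1 site TGANTCA and the CRE TGACGTCA. The others were the shorter CRE core TGACGT (which the CRE contains), TATAAA and GGGCGG. Other ETS-type sequences, such as those with GGAA alone, were not searched. The CArG box, CCGGAA, the AP-1 site and the full CRE were in 0 of the 7 regions. They were in 1.47%, 12.0%, 6.75% and 1.55% of all 32851 regions. TGACGT stood in the Fos region alone, from 66 to 61 bases before the start, and in 6.47% of all regions. TATAAA was also found in the Fos region alone, from 33 to 28 bases before the start, and in 12.4% of all regions. GGGCGG was in the Fos, Spred1 and Ier3 regions and 3 times in the first Etv5 region, and in 32.7% of all regions. The Dusp6 and Spry2 regions held none of the 7 motifs. These are matches of letters in a short window, and binding was not measured. Sites outside the 250 bases were not searched, so that an absence here says nothing of elements further upstream.

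Among the Sprouty and Spred genes, Spry4 fell furthest. Spry4, on chromosome 18 of GRCm38 from 38586247 to 38601415, encodes a Sprouty protein that restrains RAS activation below growth factor receptors. It overlaps 2 short annotated RNAs on the opposite strand, Gm27369 by 71 bases and Gm27804 by 119. It had 7.64 and 6.84 log2 CPM in the D0 replicates, -1.11 and 1.12 at D6, with -0.62 and -0.11 at D13. The reads behind these values were 15756 and 10018, then 36 and 185, then 46 and 69. Both later days lay far below D0 without overlap, while D6 and D13 overlapped each other. The log2 fold change from D0 to D6 was -7.24 (SE 0.66, adjusted p = 0.000135), a 151-fold lower level. It was the largest decrease among the 12626 genes, closely followed by Egr1 (-7.22). Dropping D6 replicate 1 made the Spry4 value -6.12 and dropping D6 replicate 2 made it -8.35, since those replicates differed by 2.24 on the log2 scale. From D6 to D13 the log2 fold change was -0.37 with a 95% interval of -1.86 to 1.12. At D13 the difference from D0 was -7.61 (SE 0.66, adjusted p = 7.11e-05).

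Spry2 encodes another Sprouty protein, and its mean was lower on each later day, though the change from D6 to D13 did not pass the test. It lies on chromosome 14 from 105891947 to 105896819. Its log2 CPM was 7.04 and 6.56 at D0, then 5.22 and 5.19 at D6 and lastly 4.31 and 4.60 at D13. No 2 days overlapped. The log2 fold change was -1.60 (SE 0.24, adjusted p = 0.00181) from D0 to D6, which was 3.02-fold and short of the 4-fold minimum. From D6 to D13 it was -0.75 (95% interval -1.31 to -0.19, adjusted p = 0.109). Over both steps it was -2.35 (SE 0.24, adjusted p = 0.00017), and Spry2 was called down.

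Spred1 encodes a Sprouty-related protein that brings the RAS inhibitor neurofibromin to the membrane. It lies on chromosome 2 from 117121374 to 117182279 and took nearly the course of Spry2. Its log2 CPM was 7.11 and 7.05 at D0, then 5.37 and 5.57 at D6 and lastly 4.36 and 5.02 at D13. Again no days overlapped. The log2 fold change was -1.61 (SE 0.26, adjusted p = 0.00235) from D0 to D6 and -0.78 (95% interval -1.37 to -0.19, adjusted p = 0.114) from D6 to D13. Spred1 was called down over the 13 days with -2.39 (SE 0.26, adjusted p = 0.00021), a 5.23-fold lower level. After each gene was centred on its own mean, Spry2 and Spred1 differed by a root mean square of 0.18 on the log2 scale over the 6 libraries.

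Both DUSP genes fell deeply to D6, and only Dusp4 was called up again. Dusp6, on chromosome 10 from 99263231 to 99267489, encodes a cytoplasmic phosphatase that acts on ERK. Its log2 CPM was 6.75 and 6.25 at D0, then 0.35 and 1.27 at D6 and lastly 1.63 and 2.00 at D13. The reads were 8511 and 6623, then 100 and 205, then 221 and 300. At D6 Dusp6 had a log2 fold change of -5.69 (SE 0.38, adjusted p = 3.37e-05), a 51.6-fold lower level. Both D13 replicates were above both D6 replicates, yet the log2 fold change from D6 to D13, 1.01 (95% interval 0.14 to 1.87, adjusted p = 0.15), did not pass the test. At D13 Dusp6 was 25.7-fold below D0, with a log2 fold change of -4.68 (SE 0.38, adjusted p = 5.39e-05).

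Dusp4, on chromosome 8 from 34807297 to 34819894, encodes a nuclear phosphatase of ERK and related kinases. It had 5.30 and 6.28 log2 CPM at D0, then -0.61 and -0.84 at D6 and lastly 2.62 and 3.15 at D13. The reads were 3102 and 6788, then 51 and 47, then 439 and 665. The 3 days stood apart from each other, with D13 between D6 and D0. Its log2 fold change to D6 was -6.52 (SE 0.39, adjusted p = 2.57e-05), a 91.6-fold lower level. From D6 to D13 it was 3.61 (SE 0.39, adjusted p = 0.0136), a 12.2-fold rise, at rank 5 by size among the increases of all genes in that step. Without D13 replicate 1 the value was 3.88 and its adjusted p 0.0972, which ended the call. Over all settings tried, adjusted p ranged from 0.000451 to 0.0972. The rise was partial: D13 differed from D0 by -2.91 (SE 0.39, adjusted p = 0.000647), and D13 held 13.3% of the D0 level.

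Etv4 and Etv5 encode PEA3-group ETS factors, which FGF and ERK signalling induce in many embryonic tissues, and they differed widely. Etv4, on chromosome 11 from 101769742 to 101785371, had 6.67 and 5.38 log2 CPM at D0, then 0.70 and 3.04 at D6 and lastly 3.54 and 3.26 at D13. The D6 replicates lay 2.33 apart on the log2 scale, from 128 and 698 reads, but both were below both D0 replicates. Etv4 was called down at D6 with a log2 fold change of -4.16 (SE 0.69, adjusted p = 0.00268). It was -2.99 without D6 replicate 1, -5.32 without D6 replicate 2, -3.51 without D0 replicate 1 and -4.80 without D0 replicate 2, and the call held in each case. The later step had 1.53 (95% interval -0.03 to 3.10, adjusted p = 0.212). Against D0, Etv4 at D13 had -2.62 (SE 0.69, adjusted p = 0.0153). This last call was lost without D0 replicate 1 (log2 fold change -1.98, adjusted p = 0.112), without D13 replicate 1 (-2.76, adjusted p = 0.0793) and without D13 replicate 2 (-2.48, adjusted p = 0.0836), with a range of 0.000127 to 0.112 over all settings. Without D0 replicate 2 the value was -3.27 and the call held.

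Etv5, on chromosome 16 from 22381309 to 22439719, had the highest level per kilobase of the 10 genes on each day. Its log2 CPM was 8.62 and 8.77 at D0, then 8.22 and 8.59 at D6 and lastly 7.69 and 8.13 at D13. The days did not overlap, though D6 replicate 2 was just below D0 replicate 1. The log2 fold change was -0.29 (95% interval -0.85 to 0.26, adjusted p = 0.437) from D0 to D6 and -0.49 (95% interval -1.05 to 0.06, adjusted p = 0.252) from D6 to D13. For D13 against D0 it was -0.79 (SE 0.24, adjusted p = 0.0299), a 1.73-fold lower level that was far from the 4-fold minimum. Etv5 retained 58.0% of its D0 level at D13, where Etv4 retained 16.2%.

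The immediate-early genes parted in the second week. Egr1, on chromosome 18 from 34859823 to 34864984, encodes a zinc finger factor whose gene responds to ERK through serum response elements. It had 6.24 and 7.08 log2 CPM at D0, then 0.10 and -1.22 at D6 and lastly -0.45 and -1.16 at D13. The reads were 5956 and 11827, then 84 and 36, then 52 and 33. The D6 and D13 values overlapped, and both days were far below D0. The log2 fold change was -7.22 (SE 0.53, adjusted p = 5.44e-05) from D0 to D6, a 149-fold lower level. It ranked second among all genes after Spry4 (-7.24), a difference well inside the standard errors, so that their order is not settled. The Egr1 value was -7.88 without D6 replicate 1 and -6.56 without D6 replicate 2. In the step to D13 it was -0.24 with a 95% interval of -1.44 to 0.95. The D13 value against D0 was -7.47 (SE 0.53, adjusted p = 2.89e-05).

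Fos, on chromosome 12 from 85473890 to 85477273, encodes a subunit of the AP-1 factor. It was low in serum, with 3.08 and 2.10 log2 CPM at D0, from 665 and 374 reads. At D6 it had 0.85 and 0.34 log2 CPM, and at D13 3.24 and 3.17, from 677 and 677 reads. D13 was above D6 in both replicates and also above D0. Against D0 the D6 log2 fold change was -1.99 (SE 0.41, adjusted p = 0.00759), a 3.98-fold decrease that fell just short of the minimum. It passed the minimum without D0 replicate 2 (-2.48) and without D6 replicate 1 (-2.25), but was -1.51 without D0 replicate 1. Fos was then called up by 2.61 (SE 0.41, adjusted p = 0.0215), a 6.12-fold rise. That call was lost without D6 replicate 2 (2.36, adjusted p = 0.101) and without D13 replicate 1 (2.58, adjusted p = 0.113), and over all settings its adjusted p ranged from 0.00257 to 0.113. Between D0 and D13 the log2 fold change was 0.62 (95% interval -0.30 to 1.54, adjusted p = 0.247). Fos was the only one of the 10 genes with a mean above D0 at D13.

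Ier3, on chromosome 17 from 35821684 to 35822923, encodes a small protein that prolongs ERK activity and affects survival. Its log2 CPM was 2.96 and 1.85 at D0, then 0.23 and 1.03 at D6 and lastly 0.21 and 0.41 at D13. D6 and D13 overlapped, and both were below D0. The log2 fold change was -1.78 (SE 0.49, adjusted p = 0.0294) from D0 to D6, under the 4-fold minimum, and -0.32 (95% interval -1.43 to 0.79) from D6 to D13. It passed the minimum to D6 without D0 replicate 2 (-2.33) and without D6 replicate 2 (-2.17), but was -1.22 without D0 replicate 1. For the whole 13 days it was -2.10 (SE 0.49, adjusted p = 0.00901). Without D0 replicate 1 it was -1.54 and without D13 replicate 1 it was -1.998 (adjusted p = 0.0562), and in both cases Ier3 was no longer called. Its adjusted p ranged from 0.00453 to 0.0562 over all settings.

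**Figure D2:**
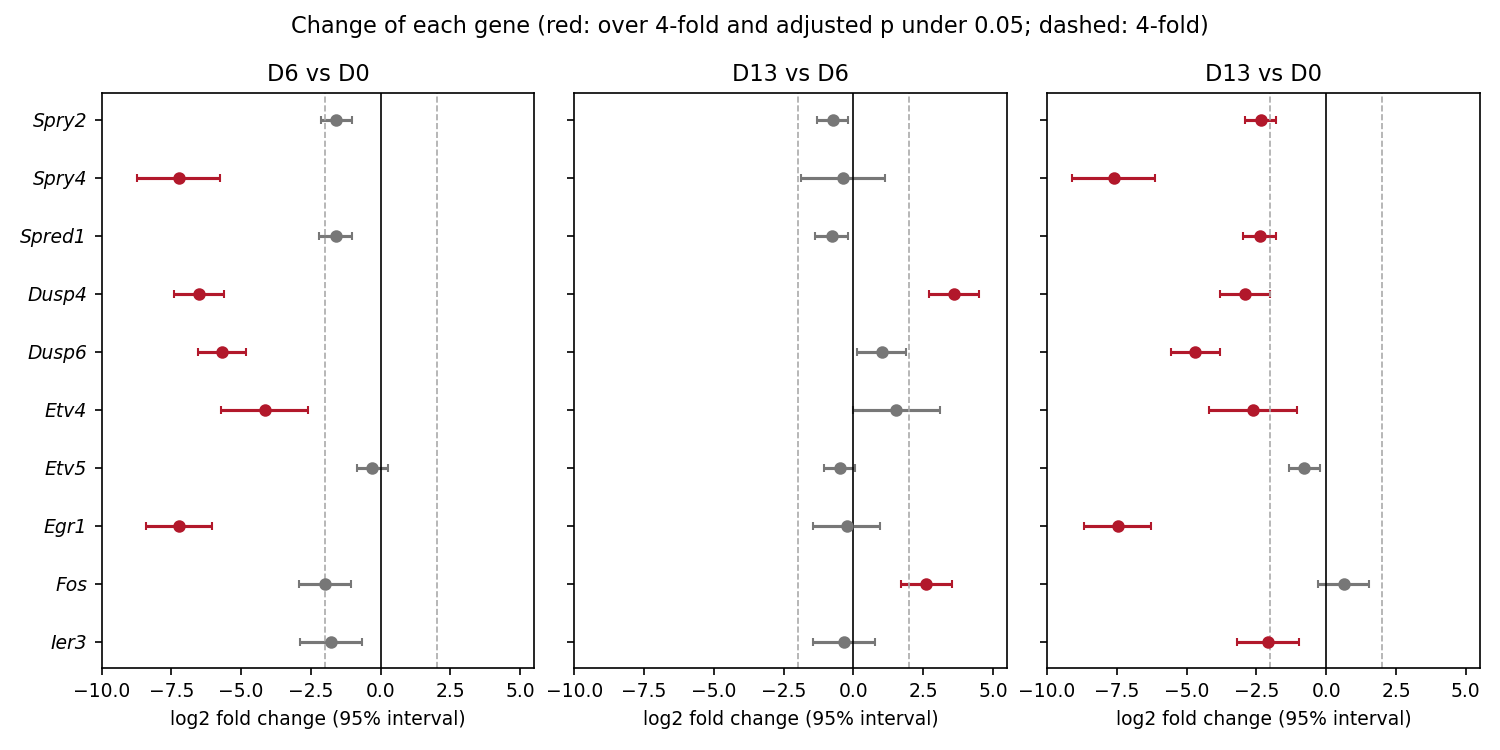
Log2 fold change of each gene with its 95% interval from limma for D6 vs D0, D13 vs D6 and D13 vs D0. Red marks a called gene and dashed lines mark a 4-fold change. The first panel has 5 red points, all to the left, the middle panel 2, Dusp4 and Fos, to the right, and the last panel 8 to the left.

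Levels can be compared between genes only per length, for which CPM was divided by the kilobases of exon of each gene in GENCODE. At D0 the means per kilobase ran from 103 for Etv5 and 54.1 for Spry2 down to 5.03 for Ier3 and 3.02 for Fos. Spry4 (33.1), Dusp6 (32.9), Etv4 (29.95), Egr1 (23.5), Dusp4 (21.4) and Spred1 (19.9) lay between, and among these the replicate range of each gene overlapped that of the next. At D6 Etv5 (84.8), Spry2 (17.6) and Spred1 (6.56) each had a replicate range wholly above that of the next gene. Spry4 (0.278), Dusp4 (0.221) and Egr1 (0.167) were at the bottom at D6 and overlapped. At D13 Etv4 (4.43), Fos (4.39) and Spred1 (3.91) followed Etv5 and Spry2 and overlapped, Dusp4 came next with 2.74, and Spry4 (0.166) and Egr1 (0.132) were lowest and overlapped. The members spanned from 3.02 to 103 CPM per kilobase at D0 and from 0.132 to 60.5 at D13.

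**Figure D3:**
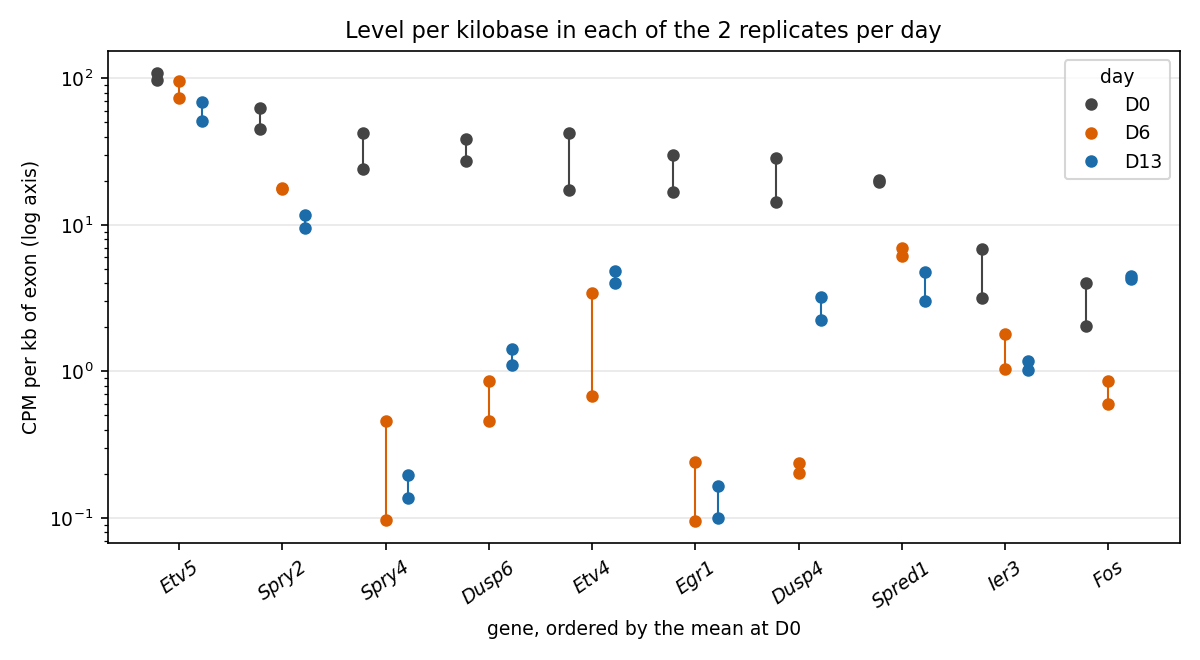
CPM per kilobase of exon, on a log axis, for both replicates of each day, with genes ordered by their D0 mean and a line joining the replicates of a day. Fos, the lowest by D0 mean, stood just below Etv4 at D13 with 4.39 CPM per kilobase, while Spry4 and Egr1 were under 0.5 at D6 and D13.

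At D0 and D6, though not at D13, the replicates of these genes differed more than those of most genes. At D0 the median gap between replicates was 0.82 on the log2 scale over the 10 genes and 0.34 over all genes, and 8 of 10 were above the median gap of all genes. At D6 the medians were 0.66 and 0.15, with 9 of 10 above. At D13 they were 0.40 and 0.38, with 5 of 10 above. The largest gaps were those of Etv4 (2.33) and Spry4 (2.24) at D6, where 99.9% of genes had a smaller one. D6 replicate 2 was higher for Spry4, Dusp6 and Etv4, and D6 replicate 1 for Egr1, Fos and Dusp4, so that no replicate was lower throughout.

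Genes with the most similar course were found by the root mean square difference of centred log2 CPM over the 6 libraries, among 11931 other genes with an intact name. Closest to Spry4 were Myrf (0.63), Esrp1 (0.90) and Foxp1 (0.94), and closest to Egr1 were Foxp1 (0.45), Myrf (0.80) and Sox11 (0.83). Myrf encodes a membrane-bound transcription factor and Esrp1 an epithelial splicing regulator. Closest to Dusp6 were Pcdh1 (0.48), Esrp1 (0.56) and Krt19 (0.61), and closest to Etv4 were Slc16a3 (0.63), Plvap (0.64) and Snai3 (0.67). Among the members themselves, Egr1 was eighth in likeness to Spry4, and Dusp6 was seventh to Dusp4. These values describe likeness over 6 libraries from 3 days, which all these genes share.

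The rest of the pathway was read from 4 further lists, of which 80 genes had a row. From D0 to D6, 13 of 80 were called down and 3 up, with a median log2 fold change of -0.49. Of all genes, 3.90% were down and 5.91% up. In the step from D6 to D13, 1 of 80 was called down and 1 up, against 0.697% and 0.388% of all genes. By D13, 13 of 80 were down and 2 up relative to D0, against 6.01% and 7.45%. These shares of all genes are also the background of the counts for each list below.

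In the list of RAS-RAF-MEK-ERK cascade genes, which includes RAS genes, 1 of 20 genes was called down from D0 to D6 and 0 up. The median log2 fold change of this list was -0.23. Map2k1 and Map2k2, which encode the MEK proteins that PD0325901 binds, had log2 fold changes of 0.38 (95% interval -0.12 to 0.88) and 0.04 (95% interval -0.71 to 0.78). Mapk3, encoding ERK1, had -1.05 (SE 0.24, adjusted p = 0.0124), below the 4-fold minimum. Eras, an ES cell RAS gene, was the called one, with -2.26 (SE 0.31, adjusted p = 0.00105) to D6 and -3.68 (SE 0.31, adjusted p = 6.71e-05) to D13, the latter again the only call of 20.

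Of 16 ligand and receptor genes, 3 were called down and 2 up from D0 to D6. Fgfr2, which encodes an FGF receptor, had 4.93 and 6.02 log2 CPM at D0, then 0.92 and -0.04 at D6 and lastly -2.30 and -1.35 at D13. At D13 its log2 fold change against D0 reached -7.30 (SE 0.54, adjusted p = 3.83e-05). Fgf15 (-4.62) and Fgf17 (-4.19), genes of FGF ligands, were the other called decreases to D6, and Igf1r was added at D13 (-2.08). Fgf4, the gene of the ligand named above, went from 6.77 and 7.63 log2 CPM at D0 to 8.47 and 8.12 at D6, and had 7.57 and 7.83 at D13. Both D6 replicates were above both D0 replicates, and the difference of 2.13-fold (adjusted p = 0.0291) was under the 4-fold minimum. Kit rose by a log2 fold change of 4.18 (SE 0.33, adjusted p = 7.18e-05) and Pdgfa by 2.10 (SE 0.23, adjusted p = 0.000331). From D0 to D13, 4 were called down and 2 up, the latter again Kit and Pdgfa, and from D6 to D13 there were 0 calls.

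Of 18 other negative regulators, 4 were called down to D6 and 0 up. They were Spred3 (-3.67), Spry1 (-2.70), Dusp5 (-2.54) and Errfi1, an inhibitor of EGF receptor signalling whose decrease of 4.002-fold lay at the threshold. From D0 to D13, 3 were called down, Spred3 (-4.64), Dusp5 (-3.23) and Spred2 (-2.36), and 0 up. Spry1 went from 4.71 and 4.95 log2 CPM at D0 to 2.03 and 2.22 at D6, with 3.27 and 3.22 at D13. The later increase of Spry1, 1.12 (SE 0.27, adjusted p = 0.0538), did not pass the test. In this list 0 genes were called between D6 and D13.

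Of 26 other ERK-responsive and immediate-early genes, 5 were called down and 1 up from D0 to D6. Myc, the proto-oncogene, fell from 6.55 and 5.45 log2 CPM at D0 to 0.66 and 1.78 at D6 and to -0.86 and -1.12 at D13. Its log2 fold change was -4.78 (SE 0.49, adjusted p = 0.000245) to D6, and that from D6 to D13, -2.21 (SE 0.49, adjusted p = 0.0446), was the only called decrease of this step over the 4 lists. With single libraries left out, that count was 0 to 4 decreases and 0 to 2 increases. The other called decreases to D6 were Phlda1 (-2.96), Plaur (-2.94), Jun (-2.93) and Maff (-2.26), and Epha4, which encodes an ephrin receptor, rose (2.06). From D0 to D13, Myc (-6.99), Phlda1 (-2.29), Etv1 (-2.27), Klf6 (-2.18) and Plaur (-2.08) were called down and 0 genes up. Maff, which encodes a small bZIP factor, was called up from D6 to D13 with 2.49 (SE 0.32, adjusted p = 0.0157), from 0.55 and 0.93 to 3.39 and 3.07 log2 CPM, against 3.06 and 2.95 at D0. Jun, which encodes an AP-1 partner of FOS, went from 4.34 and 4.64 at D0 to 1.76 and 1.36 at D6, with 3.48 and 3.02 at D13. Its second step, 1.69 on the log2 scale (SE 0.31, adjusted p = 0.029), was under the 4-fold minimum.

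**Figure D4:**
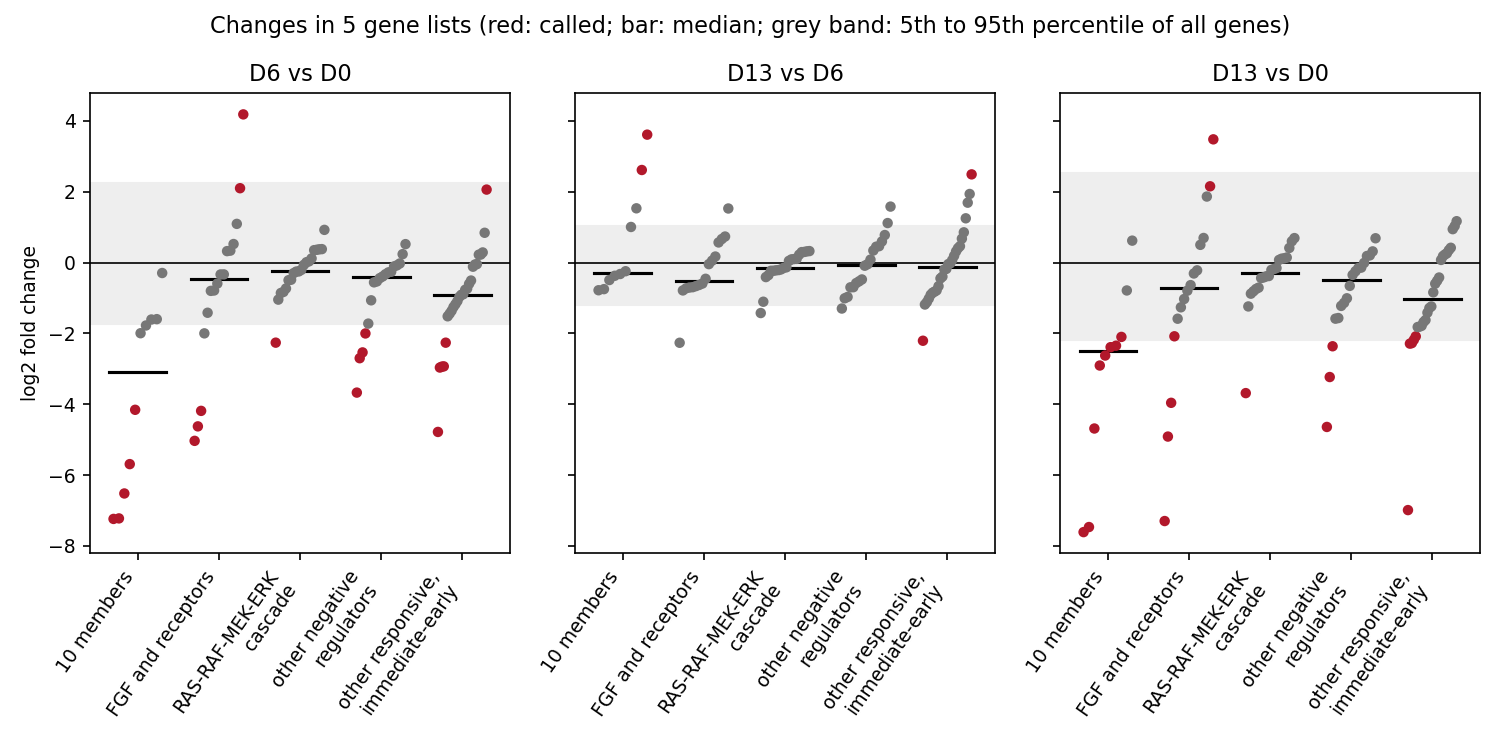
Log2 fold change of every gene of the 10 members and the 4 other lists in each comparison, sorted within a list, with red for called genes, bars for medians and a grey band from the 5th to the 95th percentile of all genes. In D6 vs D0 the members had a median of -3.08, while the 4 other lists had medians between -0.90 and -0.23.

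In the step from D6 to D13, both replicates of 3 of the 10 members were below both D6 replicates (Spry2, Spred1 and Etv5) and both of 4 were above (Dusp4, Dusp6, Etv4 and Fos). Such arrangements were found in 31.5% and 30.0% of all genes. Between D0 and D13, 9 of 10 were lower without overlap, against 35.6% of all genes. The fibroblast marker sum was 9.75 to 10.6 CPM at D13, above its D6 range, but its genes split. From D6 to D13, Thy1 (1.29) and Pdgfrb (0.45) had higher means on the log2 scale. Col1a1 (-0.41) and Col1a2 (-1.73) had lower ones, and none of these was called. Against D0, the D13 means were lower for 3 and higher for 1. Only Col1a2 was called in that comparison, down with a log2 fold change of -3.86. The primitive endoderm sum was 4.41 to 4.80 CPM, within its D6 range. The germ layer sum was 7.39 to 11.7 CPM at D13, above its ranges at D0 and D6. Its 2 genes with a row, Sox1 and Twist1, went opposite ways from D0. Sox1 had log2 fold changes from D0 of 1.23 at D6 and 1.86 at D13, and Twist1 of -1.66 and -0.34. Neither was called.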

How the data were processed

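The deposited values were log2 CPM. Per the study's methods, alignment by the authors was to mm10 with TopHat 2.0.6 and the RefSeq annotation. They counted reads per gene with HTSeq 0.6.1, combined gene and transposon counts, applied TMM and made the log2 values with voom. The strand setting of the counting was not given in the sources used here. Each gene value lay within 0.05 of a whole number of reads plus 0.5, from which reads were recovered, and 3 reads were at most 0.042 CPM.

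Samples were grouped by the day in their titles. The log2 values were tested with limma 3.58.1 in R 4.3.3, with a mean for each of 3 days, 6 samples in 1 fit, a mean-variance trend, no block and Benjamini-Hochberg adjustment over 12928 rows. Tables used Python 3.11.15, numpy 2.4.6 and pandas 2.3.3, and plots matplotlib 3.10.9. The script was first tested on simulated counts with known changes. An exact permutation test cannot reach 0.05 with 2 samples a day.

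The members and lists were chosen with earlier results of these data known. Named beyond the 10 members were each gene of 4 pathway lists called in any comparison, genes of the MEK and ERK kinases, and the 3 genes nearest in course to Spry4, Dusp6, Etv4 and Egr1. Fgf4 and marker genes were named after their values were seen. One result under this rule is not reported here. Gene names in the files lack capital G, so that Grb2, Gab1, Gata4 and Gata6 had no row under their names and were left out. Gene positions come from the GENCODE vM21 annotation (GRCm38). Replicate numbers were not taken as pairs, since the replicate difference over all rows had r of -0.06 between D0 and D6. The alternatives tried were a replicate block, a minimum of 10 reads in 2 samples, fits on just the days compared, no trend, voom weights, median centring, other thresholds and each library left out.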

Additional observations from a re-analysis of the deposited data

Results flagged for a closer look

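For 2 of the 10 genes the difference from D0 was not the same at D6 and at D13, by the test of D13 against D6. Dusp4 had a log2 fold change of 3.61 in that step (limma adjusted p = 0.0136) and Fos of 2.61 (limma adjusted p = 0.0215), higher in 2 of 2 replicates at D13 for both. D13 cells were still in medium with the MEK inhibitor.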

How the results depend on the processing

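Of 450 values of single genes under an alternative, 422 kept their direction and their side of the threshold, 13 newly passed it, 11 no longer passed it and 4 changed sign. The sign changed only where the step from D6 to D13 was small: with libraries left out Spry4 ranged from -1.49 to 0.75 (without D6 replicate 2), Egr1 from -0.90 to 0.42 (without D6 replicate 1, and 0.12 without D13 replicate 2) and Ier3 from -0.72 to 0.076 (without D6 replicate 2). With a library left out, 5 to 7 members were called down to D6, 0 to 2 up from D6 to D13 and 6 to 8 down to D13, against 5, 2 and 8. For the other pathway genes these ranges were 12 to 14 down and 2 to 3 up to D6, 0 to 4 down and 0 to 2 up from D6 to D13, and 11 to 14 down and 1 to 3 up from D0 to D13. A 2-fold minimum gave 9 members down to D6, as did no minimum. For the other pathway genes a 2-fold minimum gave, of 80, 23 down and 4 up to D6, 2 down and 4 up from D6 to D13, and 26 down and 4 up to D13, and no minimum gave 25 down and 5 up, 2 down and 4 up, and 30 down and 5 up. Of all genes, the 2-fold minimum called 8.87% down and 11.8% up to D6, 2.65% and 1.38% from D6 to D13, and 16.3% and 16.6% to D13. Without a minimum these shares were 10.4% and 13.8%, 2.76% and 1.43%, and 21.8% and 20.9%. An adjusted p under 0.01 left 0 members up from D6 to D13 and 0 other pathway genes in either direction. In that step the other pathway genes called down were 2 with the replicate block and 0 without a trend and with voom weights. The block changed no other of these counts by over 1.5 times. The replicate difference was correlated between days with r of -0.06, 0.24 and 0.12 over all rows, and the labels give the numbers no shared origin. The filter removed 0 of 12928 rows. A test of recovered reads with a count model was not run. Where a call was lost, the cause was not tested. Levels from few reads also carry counting error. On D6 and D13, Egr1 had 33 to 84 reads, Spry4 36 to 185 and Ier3 82 to 173. Dusp4 had 51 and 47 at D6.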
